A study of Mus musculus with 8 samples.

Results

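The response of hepatocytes to carbon tetrachloride (CCl4) in mice without hepcidin was measured by RNA sequencing in 4 of the 8 libraries of the series. These are the 2 libraries labelled HAMP-/- and CCl4 and the 2 labelled HAMP-/- and olive oil, chosen by genotype and treatment alone. Both groups came from 4-week-old male mice and share the loss of Hamp. Hepatocytes were isolated after collagenase digestion of the liver. One group had received a 12.5% mixture of CCl4 in olive oil for 24 h, and the other the oil alone. The other 4 libraries, from wild-type C57BL/6 mice of the same age and sex with CCl4 or oil, were used only to ask where the knockout response differed. The study's title names hepatocyte apoptosis through PERK, a stress kinase of the endoplasmic reticulum encoded by Eif2ak3, as its question. The background strain of the HAMP-/- mice is not given in the labels. The design states 6 mice per group against 2 libraries, and nothing in the labels ties a library to its own animal. The p-values therefore cover only the spread between libraries, which may be technical.

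Hepcidin, the product of Hamp, is a liver hormone that closes the iron exporter ferroportin, and mice without it load iron into their hepatocytes. CCl4 is a solvent that the cytochrome P450 Cyp2e1 turns into a radical that attacks membrane lipids. Cyp2e1 is made chiefly by the pericentral hepatocytes around the central vein, which is where CCl4 injury begins. Surviving hepatocytes are known to lower their metabolic genes and raise acute phase, stress and cytoskeletal genes before they divide.

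Hamp itself checked the labels. It was listed at 0.98 and 0.83 FPKM in the knockout CCl4 libraries and at 2.72 and 0.54 FPKM in the knockout oil libraries, against 1273 and 1136 FPKM in wild-type CCl4 and 1805 and 1826 FPKM in wild-type oil. FPKM divides fragment counts by transcript length and by the library total, so it is a level per length, and it hides the sequencing depth. In each library 8867 to 9384 of 16337 genes reached 1 FPKM. The hepatocyte label held in the markers, with albumin (Alb) alone at 8.56% and 5.55% of summed FPKM after CCl4 and 10.2% and 8.29% under oil.

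Markers of other liver cells were detected in the same libraries. The 21 neutrophil and monocyte markers together made up 0.0205% and 0.023% of summed FPKM after CCl4 and 0.0039% and 0.00468% under oil. The 22 Kupffer cell and macrophage markers made up 0.134% and 0.154% after CCl4 and 0.0803% and 0.0977% under oil. The 26 sinusoidal endothelial markers made up 0.0132% and 0.0118% after CCl4 and 0.0228% and 0.0261% under oil. None of these markers was at 0 in all 4 libraries. Of the 29 matrix and stellate cell genes, 13 stayed under 1 FPKM in all 4 libraries, and of the 16 lymphocyte markers, 13 did. In bulk RNA, fewer cells of a type and less RNA per cell cannot be told apart. The part of these cells in the changes below was not tested.

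**Figure D1:**
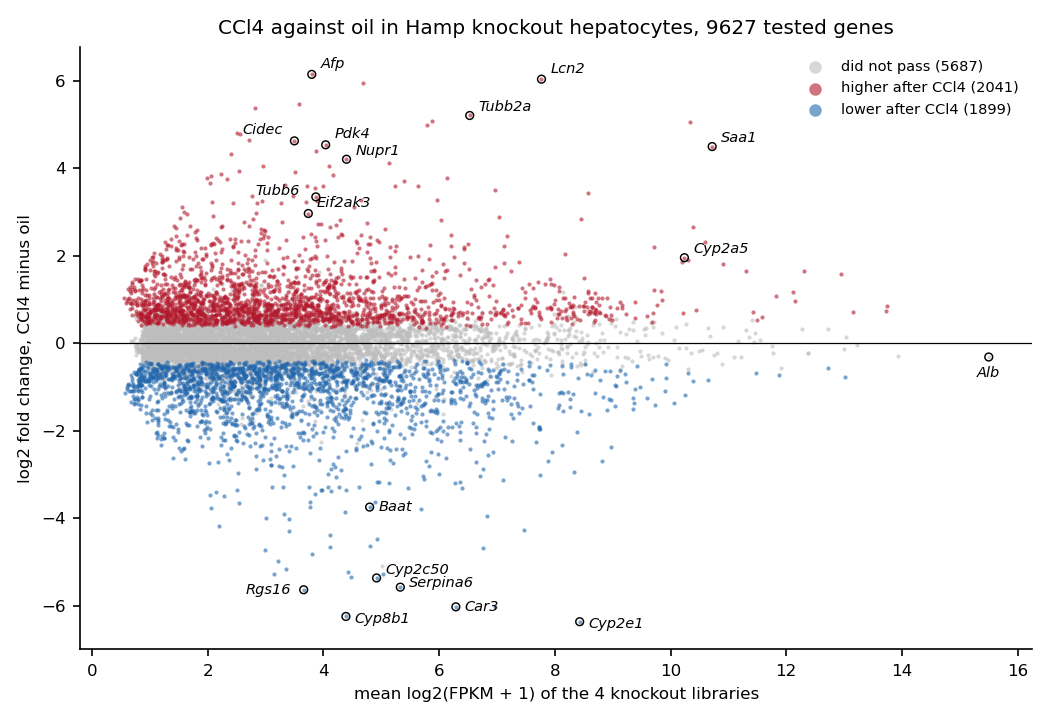
Log2 fold change of CCl4 against oil in Hamp knockout hepatocytes (vertical axis) against the mean log2(FPKM + 1) of the 4 libraries (horizontal axis), 1 point a gene. Of 9627 tested genes, 2041 were higher (red), 1899 lower (blue) and 5687 did not pass (grey). The circled genes run from Afp at 6.15 to Cyp2e1 at -6.36.

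Of 16337 genes, 9627 reached 1 FPKM in at least 2 of the 4 knockout libraries and were tested with limma on log2(FPKM + 1), a scale that understates the change of low genes. At a false discovery rate of 0.05, 3940 genes passed, which is 40.9% of those tested. Of these, 2041 were higher (21.2%) and 1899 lower (19.7%) after CCl4, and 794 (8.25%) rose and 877 (9.11%) fell at least 2-fold. The median log2 fold change of all tested genes was -0.02. For each of the 3940, both CCl4 libraries lay on the same side of both oil libraries, as they did for 72.3% of all tested genes. Each list of genes below is described by its counts beside these shares, and no test of a list was made. Genes with near-identical copies, such as Saa1 and Saa2, the Cyp2a, Cyp2c, Sult2a and Mup genes, Hspa1a and Hspa1b, and the globins, are uncertain as single genes.

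Promoters are shown for the genes the results turn on, the 2 leading increases (Afp and Lcn2), the kinase named by the study's question (Eif2ak3) and the 2 leading decreases (Cyp2e1 and Cyp8b1). Each is the 250 bases before the transcription start in the RefSeq annotation of GRCm38.p6, read on the gene's strand. Capitals mark matches, on either strand, to 1 of 7 motifs, the TATA box TATAAA, AP-1 TGANTCA, C/EBP TTGCNNAA, ATF4-C/EBP TGATGNAA, HNF4A CAAAGTCCA, the D-box TTATGNAA and the E-box CACGTG.
Afp, chr5:90490464-90490713, plus strand: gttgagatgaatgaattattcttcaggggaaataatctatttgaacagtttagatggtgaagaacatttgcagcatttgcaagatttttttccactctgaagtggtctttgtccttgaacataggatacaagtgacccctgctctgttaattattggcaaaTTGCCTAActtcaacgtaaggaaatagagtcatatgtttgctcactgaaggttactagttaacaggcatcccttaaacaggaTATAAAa
Lcn2, chr2:32387740-32387989, minus strand: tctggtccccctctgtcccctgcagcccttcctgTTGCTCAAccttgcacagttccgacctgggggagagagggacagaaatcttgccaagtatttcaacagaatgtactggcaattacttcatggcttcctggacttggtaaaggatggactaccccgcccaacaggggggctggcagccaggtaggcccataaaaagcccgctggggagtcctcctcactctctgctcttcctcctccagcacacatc
Eif2ak3, chr6:70844265-70844514, plus strand: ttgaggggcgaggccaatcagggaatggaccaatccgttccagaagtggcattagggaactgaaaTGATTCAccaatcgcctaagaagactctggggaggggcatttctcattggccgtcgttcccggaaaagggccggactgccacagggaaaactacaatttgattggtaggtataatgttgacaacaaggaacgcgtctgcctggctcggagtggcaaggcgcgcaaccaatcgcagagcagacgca
Cyp2e1, chr7:140763569-140763818, plus strand: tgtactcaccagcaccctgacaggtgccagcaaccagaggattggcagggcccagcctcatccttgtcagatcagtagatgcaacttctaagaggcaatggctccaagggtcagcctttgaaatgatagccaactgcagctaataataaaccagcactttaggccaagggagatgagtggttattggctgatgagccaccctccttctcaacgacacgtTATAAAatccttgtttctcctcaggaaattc
Cyp8b1, chr9:121916306-121916555, minus strand: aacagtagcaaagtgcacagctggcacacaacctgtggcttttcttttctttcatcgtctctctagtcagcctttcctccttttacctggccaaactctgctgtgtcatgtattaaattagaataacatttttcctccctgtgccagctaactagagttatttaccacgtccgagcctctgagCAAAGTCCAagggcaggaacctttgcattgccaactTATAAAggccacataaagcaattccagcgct

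The windows held 7 matches, none overlapping another. Afp and Lcn2 each held a C/EBP match, which begins 89 and 216 bases before the start. Eif2ak3 held no TATA box, and a match to the AP-1 pattern 185 bases before the start. That match, TGATTCA, has a T at the open centre base, and so lies outside the stricter AP-1 consensus TGA(C/G)TCA. Cyp2e1 and Cyp8b1 both held a TATA box 31 bases before their starts. Cyp8b1 also held the HNF4A motif, 67 bases before the start. Of 9627 tested genes, 7802 had such a window, and where several starts were listed the first was used. The C/EBP motif was in 15.8% of the 146 windows of genes that rose at least 4-fold, 11.1% of the 162 of genes that fell as much, and 7.93% of all 7802. The AP-1 pattern, with any centre base, was in 8.9%, 9.26% and 4.42% of the same windows and the TATA box in 11.6%, 14.2% and 6.64%. The D-box, the element bound by Dbp, Tef and Hlf, was in 4.11%, 8.02% and 2.17%. HNF4A was in 0.685%, 1.23% and 0.461%, ATF4-C/EBP in 2.74%, 1.23% and 2.05%, and the E-box in 9.59%, 7.41% and 8.98%. These shares describe letters in the windows and are not binding sites.

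Among genes above the median level, Afp rose most. Afp encodes alpha-fetoprotein, the albumin relative of fetal liver. It stood at 119 and 113 FPKM after CCl4, against 0.62 and 0.68 FPKM under oil (log2 fold change 6.15 ± 0.11 SE, n = 2 each, limma adjusted p = 0.000624). Lcn2, a siderophore-binding acute phase protein, stood at 1621 and 1922 FPKM after CCl4, against 24.8 and 27.0 FPKM under oil (6.04 ± 0.13). Neither gene's groups overlapped. Ly6d and Slpi, a surface protein and a protease inhibitor of epithelia, followed at 5.95 ± 0.14 and 5.48 ± 0.13. Tubb2a, a beta tubulin, was at 523 and 601 FPKM after CCl4, against 12.4 and 16.1 FPKM under oil (5.21 ± 0.17). Tnfrsf12a, the receptor for the cytokine TWEAK, was at 284 and 346 FPKM after CCl4, against 8.31 and 9.54 FPKM under oil (4.99 ± 0.15). Cidec and Hilpda, which coat lipid droplets, and Pdk4, which blocks the entry of pyruvate into the TCA cycle, rose by 4.63 ± 0.14, 4.39 ± 0.12 and 4.54 ± 0.15. The rest of the 15 largest increases at such levels were Saa3, Saa2, Saa1, Nupr1, Cyp17a1, a steroid hydroxylase, and Gsta1, a glutathione transferase, between 4.06 and 5.09.

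Among genes above the median level, Cyp2e1 itself fell most. It stood at 49.8 and 27.7 FPKM after CCl4, against 3031 and 3219 FPKM under oil (log2 fold change -6.36 ± 0.30, limma adjusted p = 0.000897). Cyp8b1, the sterol hydroxylase that sets the cholic acid share of bile, stood at 1.92 and 0.99 FPKM after CCl4, against 173 and 191 FPKM under oil (-6.24 ± 0.22). Both genes' groups were far apart. Car3, a carbonic anhydrase, was at 9.68 and 7.81 FPKM after CCl4, against 618 and 642 FPKM under oil (-6.02 ± 0.14). Inmt, an indole methyltransferase, was at 19.6 and 10.8 FPKM after CCl4, against 906 and 1125 FPKM under oil (-6.02 ± 0.30). Serpina6, the plasma carrier of corticosteroids, was at 5.6 and 4.16 FPKM after CCl4, against 262 and 292 FPKM under oil (-5.57 ± 0.16). The other 10 were Rgs16, a regulator of G protein signalling, Cyp2c50, Cyp2c37, the steroid enzymes Hsd3b3 and Akr1d1, Upp2, Selenbp2, Nrep, Sult2a8 and Apol7a, at -4.71 to -5.63.

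**Figure D2:**
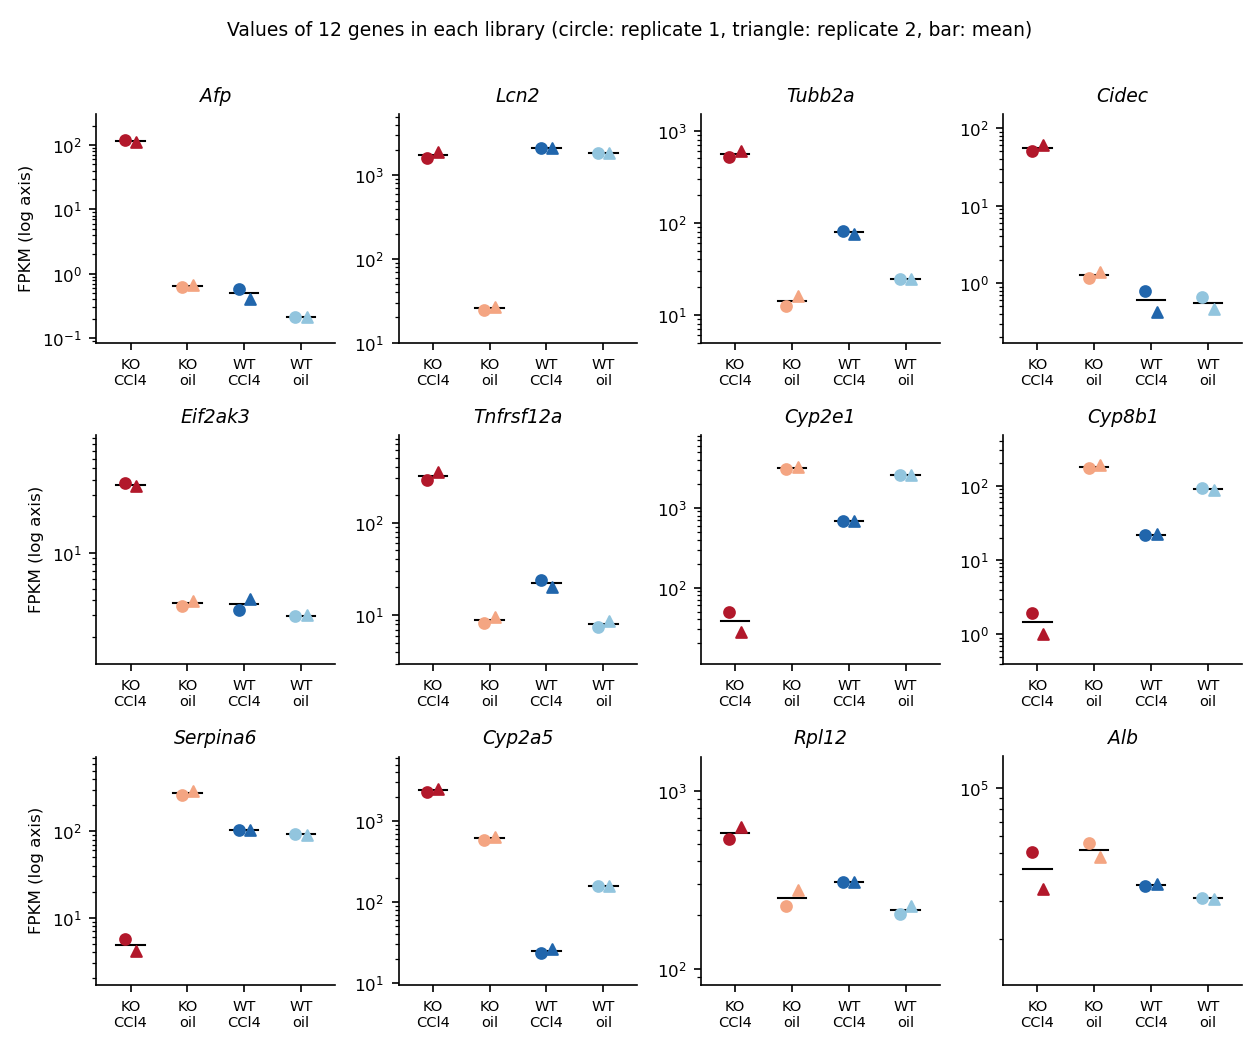
FPKM of 12 genes in each library on a log axis, with knockout CCl4, knockout oil, wild-type CCl4 and wild-type oil from left to right, circles for replicate 1, triangles for replicate 2 and bars for the mean. Afp, Cidec and Eif2ak3 are high in both knockout CCl4 libraries alone, Lcn2 is low in both knockout oil libraries alone, and Alb overlaps between the knockout groups.

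The list of acute phase genes, which also holds interleukin receptors and signalling genes, had 26 tested members, of which 18 rose and 5 fell, with a median log2 fold change of 1.14. Saa2, a serum amyloid A apolipoprotein, was at 6882 and 8067 FPKM after CCl4, against 224 and 225 FPKM under oil (5.05 ± 0.13). The pentraxin Apcs, the orosomucoid Orm2 and the haemoglobin carrier haptoglobin (Hp) rose by 2.85 ± 0.11, 2.83 ± 0.15 and 1.65 ± 0.16. The haem carrier haemopexin (Hpx) rose by 1.59 ± 0.16, to 12690 and 14821 FPKM after CCl4, against 4210 and 4941 FPKM under oil. The 26 genes together took 7.99% and 8.69% of summed FPKM after CCl4, against 2.14% and 2.27% under oil. Members of the interleukin-6 pathway went both ways. Stat3, its transcription factor, rose by 1.09 ± 0.11. Il6ra, its receptor, fell by 2.05, and Socs3, its feedback inhibitor, was at 7.92 and 7.65 FPKM after CCl4, against 23.0 and 25.2 FPKM under oil (-1.51 ± 0.11). Saa4, the family member that is not inducible by inflammation, fell by 2.69.

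**Figure D3:**
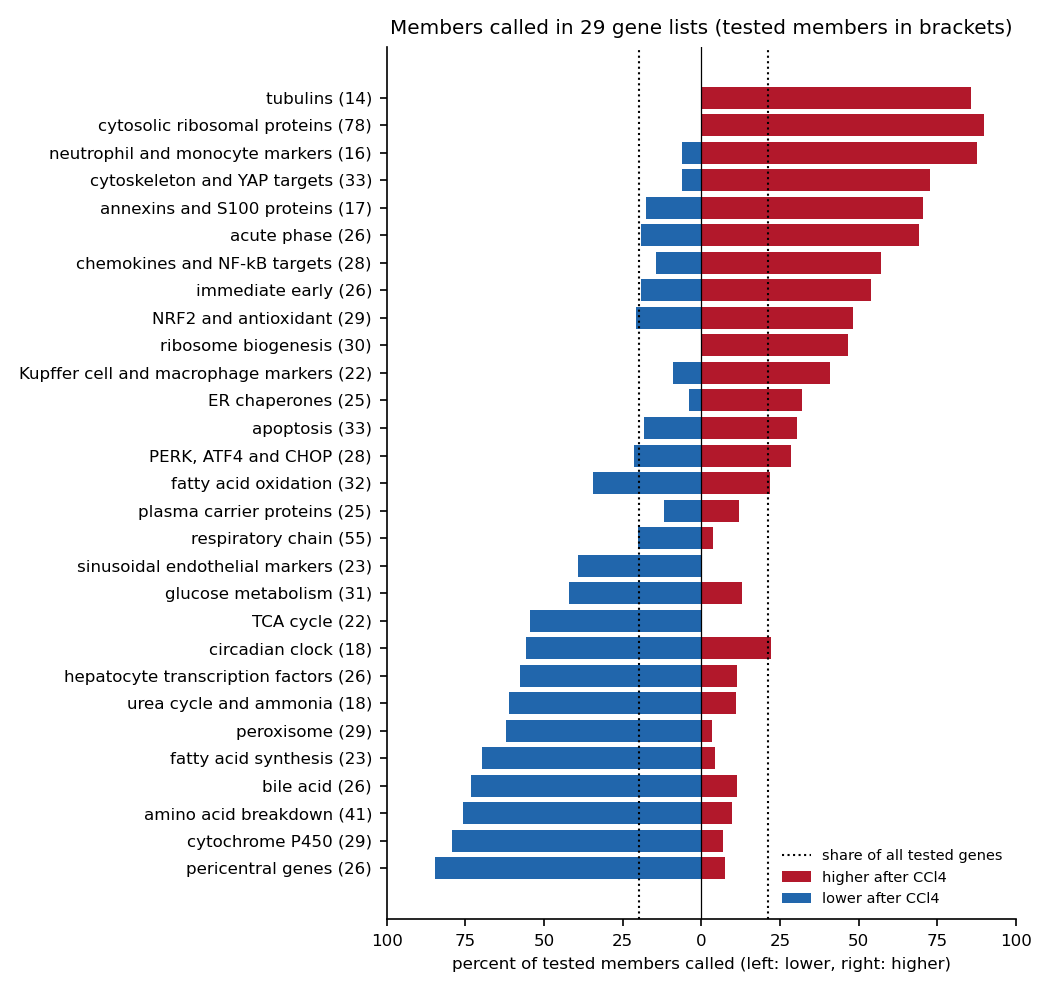
Percent of tested members called higher (right, red) or lower (left, blue) after CCl4 in 29 gene lists, with the number tested in brackets and dotted lines at the shares of all tested genes, 21.2% and 19.7%. Ribosomal protein genes and tubulins lie at the higher end and pericentral, P450 and amino acid breakdown genes at the lower end.

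PERK, one of the sensors of unfolded protein in the endoplasmic reticulum, phosphorylates eIF2alpha, which slows translation but lets Atf4 mRNA be translated. ATF4 then induces CHOP (Ddit3) and genes of amino acid supply. Eif2ak3 was at 37.5 and 35.4 FPKM after CCl4, against 3.58 and 3.99 FPKM under oil (2.97 ± 0.11, adjusted p = 0.000721). Atf4 was at 55.1 and 67.7 FPKM after CCl4, against 37.8 and 41.3 FPKM under oil (0.62 ± 0.14), and Ddit3 at 14.9 and 16.6 FPKM after CCl4, against 6.43 and 5.38 FPKM under oil (1.28 ± 0.14). The groups did not overlap in these 3 genes, and the call of Atf4 was lost without KO CCl4 replicate 2 or without either oil replicate. Of the 28 tested genes of the PERK, ATF4 and CHOP list, 8 rose and 6 fell, with a median of 0.24, beside 21.2% higher and 19.7% lower among all tested genes. Nupr1, a stress-induced chromatin protein, Gdf15, a stress hormone, and Atf3 rose by 4.21 ± 0.11, 2.16 ± 0.15 and 1.88 ± 0.12. Among ATF4 targets, Chac1, which degrades glutathione, was at 1.69 and 2.33 FPKM after CCl4, against 5.99 and 6.31 FPKM under oil (-1.26 ± 0.15). The mTOR inhibitor Ddit4 fell by 2.40 and Sesn2 by 0.69, while Trib3 (-0.34 ± 0.14) and Asns (0.90 ± 0.31) did not pass. Herpud1, which serves the degradation of misfolded proteins, fell by 1.12.

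Of 25 chaperones of the endoplasmic reticulum, 8 rose and 1 fell (median 0.26). With 1 library left out 1 to 3 were higher, and with the replicate number as a block 18 were. Sdf2l1, Pdia6 and calreticulin (Calr) rose by 1.17 ± 0.17, 0.76 ± 0.11 and 0.53 ± 0.11, but the call of Calr was lost with any 1 library left out, and that of Pdia6 with 3 of the 4. Hspa5, the main chaperone of the compartment, was at 303 and 245 FPKM after CCl4, against 251 and 218 FPKM under oil, groups that overlapped, and did not pass (0.22 ± 0.16, limma adjusted p = 0.322). It was higher after CCl4 in both same-numbered pairs, and with the replicate number as a block it passed (limma adjusted p = 0.00314). Of the cytosolic and mitochondrial heat shock genes, 2 of 23 rose (8.7%) and 5 fell (21.7%), beside 21.2% and 19.7% of all tested genes. The small heat shock proteins Hspb8 and Hspb1 rose by 1.25 ± 0.11 and 1.19 ± 0.14. The inducible Hspa1b was at 3.38 and 3.46 FPKM after CCl4, against 44.8 and 48.9 FPKM under oil (-3.44 ± 0.11).

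Genes of apoptosis rose in 10 of 33 tested cases (30.3%) and fell in 6 (18.2%), beside 21.2% and 19.7% of all tested genes. Bax, which opens the outer mitochondrial membrane, was at 59.9 and 70.1 FPKM after CCl4, against 18.5 and 22.4 FPKM under oil (1.62 ± 0.15). Its opponent Bcl2l1, which encodes Bcl-xL, was at 72.7 and 82.5 FPKM after CCl4, against 15.7 and 18.6 FPKM under oil (2.12 ± 0.14). Groups of both genes were apart, in the same direction. Of the BH3-only genes, which trigger the mitochondrial route, Bmf (-1.62 ± 0.12) and Bik (-1.38 ± 0.13) fell. Bid (0.78 ± 0.11) and Bcl2l11, which encodes Bim (0.59 ± 0.14), were higher. The call of Bid was lost without either oil replicate, and that of Bcl2l11 with any 1 library left out and under quantile normalization. The survival factor Mcl1 was higher by 0.59 ± 0.10. The death receptor Fas fell by 1.22 and Cflar, an inhibitor of caspase 8, by 0.92, while Tnfrsf1a, a receptor for TNF, rose by 0.64 ± 0.14. Casp8 (0.60 ± 0.21), Casp9 (-0.04 ± 0.12) and Xiap (-0.36 ± 0.78) did not pass. Xiap differed more between replicates, at 5.16 and 1.32 FPKM after CCl4 and 8.04 and 1.59 FPKM under oil, than between groups.

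Among p53 targets, 6 of 20 tested genes rose and 5 fell. The cell cycle inhibitor Cdkn1a was at 33.9 and 37.8 FPKM after CCl4, against 5.78 and 6.55 FPKM under oil (2.36 ± 0.13), and Mdm2, the ligase that degrades p53, rose by 1.40 ± 0.23. Gadd45a fell by 1.16. Of the G1 genes, 6 of 16 rose and 1 fell, with Myc at 1.07 ± 0.16 and Cdk4 at 0.97 ± 0.10. Cyclin D1 (Ccnd1) was at 11.8 and 12.4 FPKM after CCl4, against 6.11 and 6.09 FPKM under oil (0.88 ± 0.11). Of 34 replication and mitosis genes, only 18 were abundant enough to test, of which 6 rose and 3 fell. Pcna and Mcm2, parts of the replication fork, rose by 0.88 ± 0.10 and 0.95 ± 0.16, and Tk1 fell by 2.78. The proliferation marker Mki67 was at 0.1 and 0.09 FPKM after CCl4 and at 0.18 and 0.01 FPKM under oil.

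Antioxidant genes, many of them targets of the factor NRF2, were higher in 14 of 29 tested cases and lower in 6 (median 0.49). The metallothionein Mt1, which binds zinc and other metals, was at 3031 and 3721 FPKM after CCl4, against 485 and 574 FPKM under oil (2.67 ± 0.17). Sqstm1, a cargo receptor of autophagy, rose by 2.04 ± 0.15, and Gclc and Srxn1, which make glutathione and repair peroxiredoxins, by 1.75 ± 0.15 and 1.72 ± 0.12. Catalase (Cat) was at 218 and 227 FPKM after CCl4, against 1120 and 1167 FPKM under oil (-2.36 ± 0.10), and Gpx1 fell by 1.09. Gclm, the partner subunit of Gclc, fell by 0.94.

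Of 41 tested iron and haem genes, 11 rose (26.8%) and 10 fell (24.4%), beside 21.2% and 19.7% of all tested genes. Ferritin, the iron store, rose in both subunits. Fth1 was at 4200 and 4759 FPKM after CCl4, against 1285 and 1562 FPKM under oil (1.66 ± 0.16), and Ftl1 rose by 1.18 ± 0.17. Hmox1, which breaks down haem, rose by 1.96 ± 0.15, and Alas1, which starts haem synthesis, was at 79.9 and 88.8 FPKM after CCl4, against 262 and 292 FPKM under oil (-1.70 ± 0.12). Of the sensors upstream of hepcidin, hemojuvelin (Hfe2 in the table) fell by 2.77, to 2.32 and 2.25 FPKM after CCl4, against 19.7 and 23.3 FPKM under oil. Tfr2 (-0.47 ± 0.13, adjusted p = 0.0507) and Hfe (-0.08 ± 0.14) did not pass, nor did ferroportin (Slc40a1), at 46.0 and 31.6 FPKM after CCl4 and 36.7 and 30.4 FPKM under oil. The iron importer Slc39a14 fell by 0.45.

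Drug metabolism genes were mostly lower. Of 29 tested cytochrome P450 genes, 23 fell and 2 rose, with a median of -1.15. The list took 1.08% and 1.13% of summed FPKM after CCl4, against 1.95% and 1.93% under oil. Cyp1a2, which oxidizes caffeine and aromatic amines, was at 37.8 and 40.3 FPKM after CCl4, against 205 and 220 FPKM under oil (-2.41 ± 0.11). Cyp2c29 and Cyp2c54 fell by 3.19 and 4.65, and Cyp3a11, a main drug oxidase, by 1.91 with an SE of 0.52. The 2 that rose were Cyp4a14, a fatty acid hydroxylase, by 1.47 ± 0.10, and Cyp2a5, a coumarin hydroxylase. Cyp2a5 was at 2270 and 2512 FPKM after CCl4, against 584 and 641 FPKM under oil (1.96 ± 0.13). Of 33 conjugation genes, 15 fell and 4 rose, with Gsta3 at -2.94 ± 0.11, Ugt1a1, which conjugates bilirubin, at -1.90 ± 0.12, and Gsta1 at 4.06 ± 0.16.

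Genes of pericentral hepatocytes fell in 22 of 26 tested cases and rose in 2, with a median of -2.15. Their share of summed FPKM was 0.113% and 0.109% after CCl4, against 1.08% and 1.07% under oil. Glul, the glutamine synthetase of the innermost cells, was at 17.1 and 16.7 FPKM after CCl4, against 98.2 and 103 FPKM under oil (-2.50 ± 0.10), and Rgn, a lactonase of vitamin C synthesis, fell by 3.12. Lect2, a secreted factor, and Oat, an ornithine transaminase, were the members that rose, by 0.65 ± 0.12 and 0.46 ± 0.11. Genes of periportal hepatocytes, at the other end of the lobule, were lower in 14 of 27 cases and higher in 3 (median -0.81). Among them, Hal, which breaks down histidine, fell by 1.44, while the apolipoprotein Apoa4 rose by 2.31 ± 0.16.

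Bile acid synthesis and transport was lower in 19 of its 26 tested genes and higher in 3 (median -1.42). Cyp7a1, the rate-limiting enzyme of bile acid synthesis, was listed at 0.15 and 0 FPKM after CCl4, against 26.9 and 12.6 FPKM under oil (-4.18 ± 0.37). Akr1d1, the next reductase, was at 0.65 and 0.21 FPKM after CCl4, against 70.3 and 40.9 FPKM under oil (-5.27 ± 0.32). Baat, which conjugates bile acids, and their importer Slc10a1 fell by 3.74 and 2.68, and their exporter Abcb11 by 1.71. The sterol exporters Abcg5 and Abcg8 rose by 0.76 ± 0.11 and 0.96 ± 0.12. Nr0b2, the repressor of Cyp7a1 transcription known as SHP, fell by 1.92 along with its inducer Nr1h4, the bile acid receptor FXR (-1.16 ± 0.10).

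Of 23 tested genes of fatty acid synthesis, 16 fell and 1 rose, with a median of -0.80. Fatty acid synthase (Fasn) was at 5.99 and 6.47 FPKM after CCl4, against 52.2 and 52.7 FPKM under oil (-2.89 ± 0.11), and Thrsp, a lipogenic coactivator, fell by 4.68. Of 26 cholesterol synthesis and uptake genes, 16 fell and 3 rose, with a median of -0.73. Insig2, a brake on the pathway, rose by 1.85 ± 0.12, and so did Sqle, a rate-controlling epoxidase, by 0.61 ± 0.11. Of 32 genes of fatty acid oxidation and PPARA targets, 7 rose (21.9%) and 11 fell (34.4%), beside 21.2% and 19.7% of all tested genes. Those that rose included Acot2, a mitochondrial thioesterase (3.59 ± 0.14), and Ehhadh, a peroxisomal enzyme (1.85 ± 0.11). PPARA itself (Ppara) fell by 1.18, and Cpt1a, the gate of mitochondrial fatty acid entry, by 0.92. The difference of Cd36, a fatty acid uptake receptor, at 5.09 and 1.91 FPKM after CCl4 and 4.59 and 1.80 FPKM under oil, did not pass.

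Of 31 glucose genes, 13 fell and 4 rose. G6pc, which releases glucose into blood, was at 72.7 and 75.4 FPKM after CCl4, against 593 and 616 FPKM under oil (-3.01 ± 0.10), and its transporter partner Slc37a4 fell by 3.02. Glycogen phosphorylase (Pygl) and the liver pyruvate kinase Pklr fell by 2.61 and 2.55. Pkm, the pyruvate kinase of proliferating and non-hepatocyte cells, was at 47.4 and 62.7 FPKM after CCl4, against 15.3 and 9.58 FPKM under oil (2.08 ± 0.27), and Aldoa and Ldha rose by 1.34 ± 0.13 and 0.95 ± 0.15. The difference of Pck1, which starts gluconeogenesis, did not pass (-0.30 ± 0.13).

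Amino acid breakdown was lower in 31 of 41 genes and higher in 4 (median -1.35). Bhmt, which remethylates homocysteine, was at 28.8 and 26.6 FPKM after CCl4, against 427 and 459 FPKM under oil (-3.95 ± 0.11), and Cth and Hpd, of cysteine and tyrosine metabolism, fell by 2.79 and 2.68. Of 18 urea cycle and ammonia genes, 11 fell and 2 rose. Asl and Otc, enzymes of the cycle, fell by 1.96 and 2.01, while the differences of Arg1 (0.23 ± 0.13) and Cps1 (-0.62 ± 0.19) did not pass. Of 16 one-carbon and serine genes, 6 rose and 4 fell. The serine synthesis enzymes Phgdh and Psat1 rose by 2.27 ± 0.39 and 1.60 ± 0.26. Of 29 peroxisome genes, 18 fell and 1 rose, Agxt, which detoxifies glyoxylate (1.86 ± 0.14). In mitochondria, 12 of 22 TCA cycle genes fell and none rose, led by Idh1, a cytosolic partner of the cycle, at -1.90 ± 0.22. Of 55 respiratory chain genes, 11 fell and 2 rose, and of 66 mitochondrial ribosomal protein genes, 9 fell and 2 rose, beside 19.7% lower among all tested genes.

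Transcription factors of hepatocyte identity were lower in 15 of 26 tested cases and higher in 3 (median -0.83). Hnf4a, the main factor of hepatocyte identity, was at 75.0 and 81.1 FPKM after CCl4, against 147 and 150 FPKM under oil (-0.92 ± 0.10), and Cebpa fell by 0.87. The nuclear receptor Nr1i3, known as CAR and a driver of P450 genes, was at 6.12 and 7.50 FPKM after CCl4, against 45.3 and 46.9 FPKM under oil (-2.60 ± 0.13). Creb3l3, an activator of acute phase genes, rose by 0.86 ± 0.14, and Cebpb (0.13 ± 0.17) did not pass. Of 18 clock genes, 10 fell and 4 rose. The output factors Hlf, Dbp and Tef fell by 2.66, 2.46 and 1.68. The core repressors Per2 and Per3 fell by 1.86 and 1.89, the repressor Bhlhe41 rose by 2.32 ± 0.11, and Arntl and Clock did not pass.

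Of 25 secreted plasma proteins, most of them carriers and protease inhibitors, 3 rose, 3 fell and 19 did not pass, with a median of -0.17. These counts depended on the settings, with 3 higher and 14 lower under quantile normalization, 7 higher and 13 lower with the replicate number as a block, and none higher and 1 or 2 lower with 1 library left out. Alb was at 50610 and 34297 FPKM after CCl4, against 56038 and 47804 FPKM under oil, and did not pass (-0.31 ± 0.25). Transferrin (Trf) and fetuin (Ahsg) were higher by 0.74 ± 0.15 and 0.85 ± 0.15, and the retinol carrier Rbp4 differed by -0.68 ± 0.16. None of these 3 passed with any 1 library left out. Of 21 coagulation genes, 5 rose (23.8%) and 7 fell (33.3%), beside 21.2% and 19.7% of all tested genes. The fibrinogen genes Fgg, Fgb and Fga rose by 1.08 ± 0.13, 0.96 ± 0.12 and 0.71 ± 0.12, but Fgb and Fga did not pass with any 1 library left out. F7, which starts the extrinsic pathway, and Klkb1, prekallikrein, fell by 1.46 and 2.87. Of 21 complement genes, 6 fell and 1, C3, was higher (0.53 ± 0.13). With any 1 library left out or with equal library medians, 4 were lower and none, C3 included, was higher, and under quantile normalization 9 were lower and 3 higher.

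Tubulin genes rose in 12 of 14 tested cases and none fell, with a median of 2.01. Tubb6 was at 43.0 and 48.7 FPKM after CCl4, against 3.74 and 3.41 FPKM under oil (3.35 ± 0.12), and Tuba1c rose by 2.62 ± 0.11. Cytoskeletal genes and YAP targets were higher in 24 of 33 cases and lower in 2 (median 1.33). The keratins of hepatocytes, Krt8 and Krt18, rose by 2.23 ± 0.13 and 2.46 ± 0.15, with Krt18 at 312 and 364 FPKM after CCl4, against 55.1 and 66.5 FPKM under oil. The YAP targets Ctgf and Cyr61, matricellular proteins, rose by 1.70 ± 0.18 and 1.42 ± 0.15, while Yap1 itself did not pass (0.20 ± 0.11). Vimentin (Vim), which other liver cells express, rose by 2.44 ± 0.16. Of 17 annexin and S100 genes, 12 rose and 3 fell. S100a10 was at 384 and 465 FPKM after CCl4, against 34.1 and 38.4 FPKM under oil (3.51 ± 0.14), with its partner Anxa2 at 3.56 ± 0.13. Those lists hold genes of macrophages and neutrophils, whose marker shares were higher after CCl4 as given above, and their part in these changes was not tested.

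The immediate early list, fast responders to growth signals and to tissue digestion alike, had 14 genes higher and 5 lower among 26. Maff, a small MAF factor, was at 72.4 and 82.0 FPKM after CCl4, against 6.00 and 8.37 FPKM under oil (3.27 ± 0.18), and Dusp5, a phosphatase of ERK, rose by 2.69 ± 0.14. Egr1, a zinc-finger factor, was at 25.9 and 26.3 FPKM after CCl4, against 55.1 and 55.5 FPKM under oil (-1.06 ± 0.10), and the differences of Fos (-0.13 ± 0.11) and Junb (-0.26 ± 0.18) did not pass. Jun was lower by -0.60 ± 0.11, a call that was lost with any 1 of the 4 libraries left out. Of 21 progenitor and biliary genes, only 10 were abundant enough to test, of which 5 rose and 1 fell. Afp and Krt19, below 1 FPKM under oil, were tested only through their CCl4 values. The count thus partly follows from the filter. The biliary keratin Krt19 rose by 0.76 ± 0.13, to 1.64 and 1.97 FPKM after CCl4, against 0.60 and 0.72 FPKM under oil. Epcam and Krt7 stayed under 1 FPKM in all 4 libraries. Of 20 junction genes, 8 rose and 6 fell, with the claudin Cldn14 at 63.0 and 70.9 FPKM after CCl4, against 3.22 and 4.26 FPKM under oil (3.85 ± 0.16), E-cadherin (Cdh1) at 1.40 ± 0.11 and the connexin Gjb2 at -0.82 ± 0.10.

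Of 78 tested cytosolic ribosomal protein genes, 70 rose and none fell, with a median of 0.75 and a range of 0.09 to 1.21. The number that passed was 4 without KO oil replicate 1, 6 without KO CCl4 replicate 2, and 32 and 34 without KO CCl4 replicate 1 or KO oil replicate 2, with medians of 0.63 to 0.88, and it was 9 at a false discovery rate of 0.01. All 78 were higher in both same-numbered pairs, and in 77 the groups did not overlap. Among all tested genes, both pairs had the same sign in 90.4% and the groups did not overlap in 72.3%, counting either direction. Rpl12, of the large subunit, was at 534 and 621 FPKM after CCl4, against 224 and 276 FPKM under oil (1.21 ± 0.16), and Rps6, of the small one, was higher by 0.74 ± 0.11. The list took 5.66% and 6.35% of summed FPKM after CCl4, against 3.53% and 4.01% under oil. Genes that build ribosomes rose in 14 of 30 cases and none fell, with the snoRNP protein Nhp2 at 1.51 ± 0.14. Ribosomal protein transcripts are short, with a median length of 704 bases in the GENCODE M21 annotation. Of the 1856 other tested genes under 1000 bases, 23.1% rose and 17.4% fell, with a median of 0.07, and of the 1421 of at least 4000 bases, 13.6% rose and 18.1% fell, with a median of -0.15. The part of transcript length in the rise was not tested. Proteasome subunits rose in 6 of 35 cases, 17.1% beside 21.2% of all tested genes, and none fell. Under quantile normalization 16 of 35 rose. Of 30 autophagy and lysosome genes, 12 rose and 4 fell, with Cd63, a tetraspanin of late endosomes, at 3.79 ± 0.14.

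Of 38 chemokine and NF-kB target genes, 28 were tested, of which 16 rose and 4 fell. Members below 1 FPKM under oil, such as Cxcl2, were tested only through their CCl4 values, so this count partly follows from the filter. Cxcl2, which attracts neutrophils, was at 10.1 and 11.3 FPKM after CCl4, against 0.54 and 0.57 FPKM under oil (2.91 ± 0.12), and Ccl2, which attracts monocytes, and Il1b rose by 2.47 ± 0.12 and 2.30 ± 0.14. Cxcl12, a chemokine of resting tissue, was at 7.81 and 7.21 FPKM after CCl4, against 102 and 105 FPKM under oil (-3.62 ± 0.10), and Cxcl1 fell by 2.95. The NF-kB inhibitor Nfkbia fell by 0.80. Interferon-stimulated genes rose in 6 of 29 cases, beside 21.2% of all tested genes, and fell in 1, with Isg15 at 1.65 ± 0.14. Neutrophil and monocyte markers rose in 14 of 16 tested cases and fell in 1. Only 5 of the 21 markers reached 1 FPKM in all 4 libraries. Those under 1 FPKM under oil, such as Chil3, were tested only through their CCl4 values, so the count partly follows from the filter. The lectin Chil3 was at 16.7 and 17.2 FPKM after CCl4, against 0.14 and 0.33 FPKM under oil (3.87 ± 0.13), and Itgam, an integrin of myeloid cells, rose by 2.68 ± 0.14. Ly6g fell by 1.22. Among macrophage markers, 9 of 22 rose and 2 fell. Marco, a scavenger receptor, rose by 2.75 ± 0.22. The 2 that fell were Clec4f and Vsig4, markers of resident Kupffer cells, by 0.83 and 0.97. Neither call held at a false discovery rate of 0.01, where 6 members of the list were higher and none lower. Adgre1, which encodes F4/80, was at 11.2 and 10.6 FPKM after CCl4 and 10.5 and 11.1 FPKM under oil (0.01 ± 0.11). Endothelial markers fell in 9 of 23 cases and none rose, with Kdr, a VEGF receptor, at -1.42 ± 0.12.

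**Figure D4:**
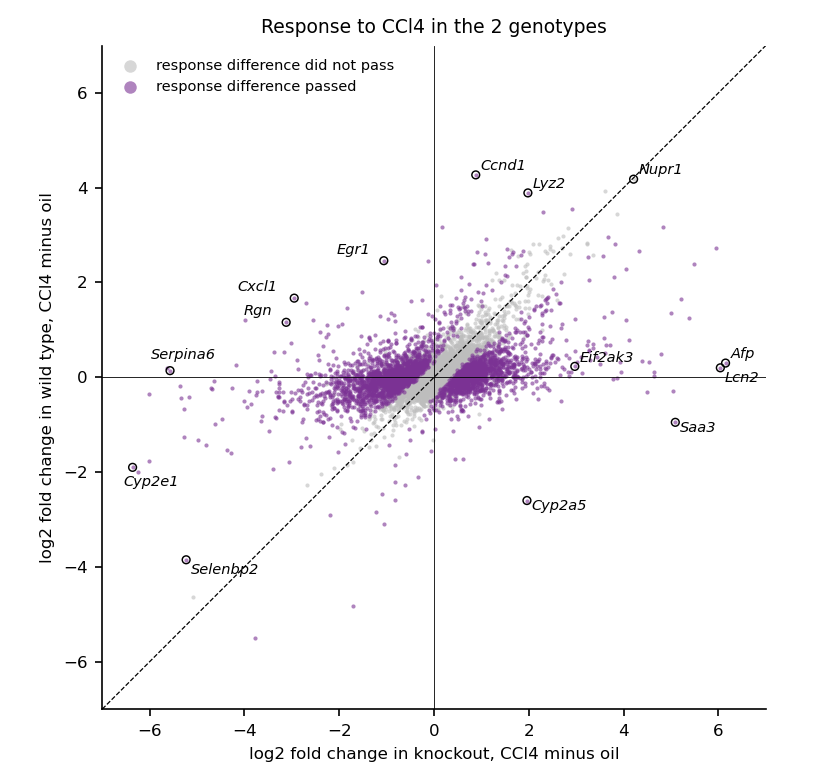
Log2 fold change of CCl4 against oil in knockout (horizontal axis) and in wild-type hepatocytes (vertical axis), 1 point a gene, with purple where the difference between the responses passed. Afp, Lcn2 and Eif2ak3 lie near 0 on the wild-type axis, Nupr1 lies on the diagonal at 4.21 and 4.18, and Cyp2a5 has opposite signs.

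The knockout response was set against that of wild-type hepatocytes in a fit of all 8 libraries. Marker shares of other liver cells differed between the genotypes. In wild-type oil, Kupffer cell and macrophage markers made up 0.00894% and 0.0104% of summed FPKM and endothelial markers 0.00376% and 0.00455%, below knockout oil. Neutrophil and monocyte markers, at 0.00304% and 0.00284%, were closer to knockout oil. The part of these cells in the response differences was not tested. In the fit of all 8 libraries, 1592 of 10082 genes passed for CCl4 in wild type (15.8%), 1026 higher (10.2%) and 566 lower (5.61%). In that fit 2816 genes were higher and 2758 lower in knockout. That fit uses the same variance of a gene for both genotypes. The SD of the difference between replicates was 0.398 in knockout CCl4 and 0.364 in knockout oil. It was 0.135 in wild-type CCl4 and 0.134 in wild-type oil. The wild-type counts and the overlaps below may therefore be too low. How many genes pass in a fit of the wild-type libraries alone was not tested. The 2041 and 1899 used below are those of the 4 knockout libraries alone. Of the 2041 genes higher in knockout, 644 were also higher in wild type, which is 31.6% of the knockout list and 62.8% of the wild-type list. Of the 1899 lower in knockout, 376 were also lower in wild type, 19.8% of the knockout list and 66.4% of the wild-type list. In opposite directions, 34 of the 2041 were lower in wild type (1.67%, and 6.01% of the genes lower in wild type) and 85 of the 1899 were higher in wild type (4.48%, and 8.28% of the genes higher in wild type). The difference between the responses passed for 3355 genes (33.3%), with the knockout response higher in 1437 and lower in 1918. It passed for 3119 with library weights by genotype. With quantile normalization the split turned, to 1811 higher and 1602 lower, so that 53.1% of the passing genes were higher, in place of 42.8%. Of the 1899 genes that fell in knockout, 1491 had a significantly lower response than in wild type. Of the 2041 that rose, 1226 had a higher one. Both lists were picked from the same 4 knockout libraries that enter the difference, so these counts partly follow from the choice of genes. They are not separate evidence of a stronger response in knockout.

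Nupr1 rose in both genotypes, at 85.8 and 94.0 FPKM in knockout CCl4, 4.06 and 3.78 FPKM in knockout oil, 33.7 and 31.3 FPKM in wild-type CCl4 and 1.09 and 0.64 FPKM in wild-type oil, with a difference between the responses of 0.03 on the log2 scale that did not pass (adjusted p = 0.919). Eif2ak3 stood at 3.33 and 4.09 FPKM in wild-type CCl4 and 2.96 and 3.03 FPKM in wild-type oil, so its rise was 2.74 ± 0.15 larger in knockout (limma adjusted p = 5.48e-05). For Cyp2e1 the wild-type levels were 677 and 692 FPKM after CCl4 and 2552 and 2557 FPKM under oil, and the knockout fall was larger by -4.46 ± 0.33. Cyp2a5 was at 23.7 and 26.6 FPKM in wild-type CCl4 and 157.5 and 157.7 FPKM in wild-type oil, a difference in response of 4.57. Ccnd1 rose less in knockout than in wild type (-3.39). For acute phase genes the oil baselines differed. Lcn2 was at 2130 and 2133 FPKM in wild-type CCl4 and already at 1835 and 1868 FPKM in wild-type oil, against 24.8 and 27.0 FPKM in knockout oil. Saa1 was at 17690 and 16480 FPKM in wild-type CCl4 and 20402 and 21875 FPKM in wild-type oil, above the 7489 and 8628 FPKM of knockout CCl4. The larger knockout responses of these genes, 5.84 and 4.81, were measured from oil baselines far below those of wild type.

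**Figure D5:**
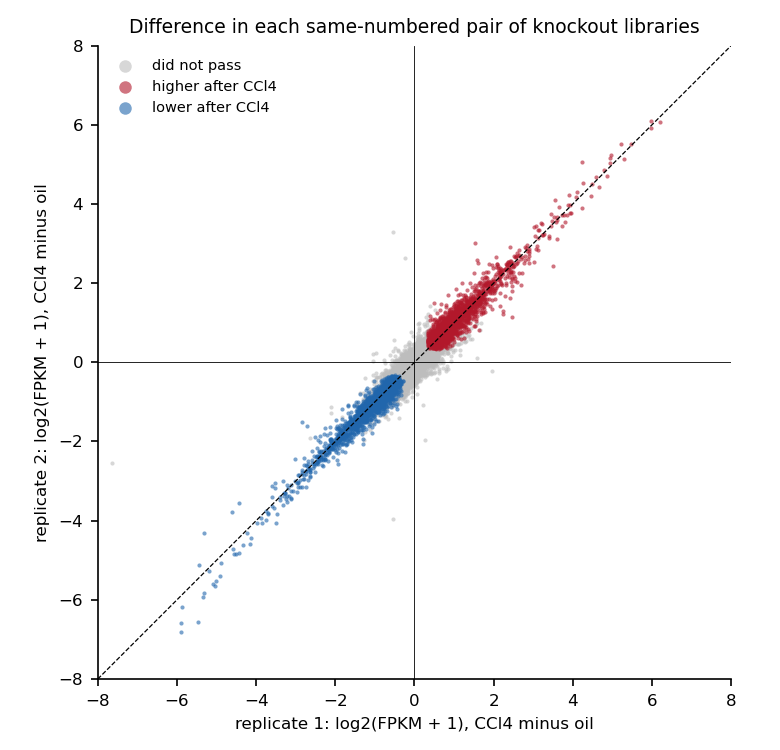
Difference between CCl4 and oil on the log2(FPKM + 1) scale in the libraries numbered 1 (horizontal axis) and 2 (vertical axis) of the knockout, 1 point a gene, red where higher and blue where lower in the fit without pairs. Genes that passed lie at the upper right and lower left, which follows from their groups not overlapping.

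The 2 knockout libraries of a treatment differed in a way that both treatments shared. Across the 9627 tested genes, the difference of replicate 2 from replicate 1 under CCl4 and that under oil had a correlation of 0.812, a description over genes of the same libraries, against -0.076 in wild type. The SD of this difference was 0.398 after CCl4 and 0.364 under oil on the log2 scale, and 0.135 and 0.134 in the wild-type groups. Apob, which encodes a long transcript, stood at 173 and 83.9 FPKM after CCl4 and at 230 and 67.2 FPKM under oil. The difference had a correlation with log2 transcript length of -0.255 after CCl4 and -0.316 under oil. The labels do not say what a shared number marks. With the number as a block, 6796 genes passed (70.6%), 3348 higher and 3448 lower. Both pairs had the same sign in 8705 genes (90.4%). All 3940 that passed without the block are among them by necessity, because their groups did not overlap. Afp differed by 6.21 in pair 1 and 6.08 in pair 2, Eif2ak3 by 3.07 and 2.87, and Cyp2e1 by -5.90 and -6.81. Sult2a8, at 2.39 and 1.02 FPKM after CCl4 and 134 and 39.3 FPKM under oil, had an adjusted p of 0.00768 without the block and 3.57e-06 with it.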

How the data were processed

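The authors deposited 1 table of FPKM values for the 8 libraries, per the file headers. Build mm8 is named in the submitters' processing notes; aligner, counter and annotation were not stated there or in the labels. The table held 16338 rows. The 1 row without a gene was left out. Of the gene identifiers, 99.82% matched RefSeq (GRCm38.p6), used for names and promoters. Depth is unknown, since the FPKM values show no steps of whole reads, so no counting error could be given.

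FPKM values as deposited were taken as log2(FPKM + 1), for genes of at least 1 FPKM in at least 2 of the 4 knockout libraries. CCl4 and oil were compared with limma 3.58.1 in R 4.3.3 (empirical Bayes with a trend, Benjamini-Hochberg adjustment over all tested genes, 2 residual degrees of freedom). Wild-type responses and their difference from the knockout came from 1 limma fit of 4 groups, over 10082 genes. The fits were also run on simulated data with independent noise in each library. That run did not hold the replicate difference shared by the knockout groups, so it does not cover it. Python 3.11.15, pandas 2.3.3, numpy 2.4.6 and matplotlib 3.10.9 were used for tables and figures.

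The comparison and the 53 gene lists were chosen with earlier results of these data known. Genes named are a few set genes (Hamp, Eif2ak3, Atf4, Ddit3, Hspa5, Cyp2e1), the 15 largest changes each way among passing genes above the median level, the strongest and the key members of each list, the most abundant genes, and the 10 largest response differences each way. A gene named outside this rule is said to be so. Alternatives were another pseudocount, other filters, quantile normalization, equal library medians, a stricter threshold, the replicate number as a block, all 8 libraries in 1 fit, library weights by genotype, and each library left out.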

Additional observations from a re-analysis of the deposited data

Results flagged for a closer look

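The response to CCl4 differed between knockout and wild-type hepatocytes for 23 named genes, by the limma test of the difference itself, and each value below is the knockout minus the wild-type log2 response. Among genes whose knockout response was higher, the serum amyloid genes Saa3 (6.04), Saa2 (5.34) and Saa1 (4.81) and Lcn2 (5.84) had wild-type oil levels far above those of knockout oil. Saa3 was at 8.78 and 9.28 FPKM in knockout oil, against 209 and 231 FPKM in wild-type oil, and it was at 301 and 386 FPKM in knockout CCl4, against 121 and 106 FPKM in wild-type CCl4.

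Afp (5.84), Cidec (4.59), Pdk4 (4.22) and Hilpda (4.05) were low in both oil groups. Cidec, for example, was at 50.8 and 60.1 FPKM in knockout CCl4, 1.16 and 1.40 FPKM in knockout oil, 0.79 and 0.42 FPKM in wild-type CCl4, and 0.66 and 0.46 FPKM in wild-type oil. Cldn14 (3.85) and Cyp2a5 (4.57) rose in knockout, and in wild type Cyp2a5 fell by 2.60. The responses of Eif2ak3 (2.74) and Atf4 (0.53) were also larger in knockout. The Atf4 difference had a limma adjusted p of 0.0465. Its call was lost without the filter on low values and at a false discovery rate of 0.01. It was also lost with any 1 library left out except KO CCl4 replicate 1.

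Among genes whose knockout response was lower, Rgs16 (-5.84) and Nrep (-4.75) stood higher in knockout oil than in wild-type oil. Rgs16 was at 85.2 and 91.1 FPKM in knockout oil, against 5.47 and 5.14 FPKM in wild-type oil. Elovl6 (-5.19), which lengthens fatty acids, was at 1.42 and 0.68 FPKM in knockout CCl4, 50.8 and 18.8 FPKM in knockout oil, 16.2 and 18.0 FPKM in wild-type CCl4, and 7.21 and 6.46 FPKM in wild-type oil. Serpina6 was at 5.6 and 4.16 FPKM in knockout CCl4, against 102 and 102 FPKM in wild-type CCl4 (-5.71). Inmt (-5.67), Cyp2c50 (-5.18), Hsd3b3 (-4.90), Akr1d1 (-4.61), Cyp2c54 (-4.58), Apol7a (-4.47) and Cyp2e1 (-4.46) likewise fell in knockout with a lower response than in wild type.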

How the results depend on the processing

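For CCl4 against oil in knockout hepatocytes, 3940 genes passed (2041 higher, 1899 lower), and between 3587 and 5574 passed with a pseudocount of 0.1, no filter on low values, quantile normalization, equal library medians or all 8 libraries in the fit. At a mean of at least 5 FPKM, where fewer genes were tested, 1339 were higher. At a false discovery rate of 0.01, 1826 passed, 863 higher and 963 lower. With the replicate block 6796 passed, 3348 higher and 3448 lower. The labels give the groups shared numbers and only 2 pairs, so the block is an alternative. In this balanced design the block leaves every log2 fold change as it was, so no gene's direction could turn. Leaving out 1 library left 1910 to 2607 genes, 887 to 1320 higher and 1023 to 1287 lower, with the lone library assumed to vary like the other group. Of 204 named genes that passed, 40 lost their call in at least 1 setting, 39 of them with a library left out. Without each of the 4 libraries in turn, 16 lost it: Ahsg, Bcl2l11, C3, Calr, Fga, Fgb, Jun, Mcl1, Oat, Rbp4, Rps6, Sesn2, Slc39a14, Sqle, Tnfrsf1a and Trf. Atf4 lost it without the filter, at 0.01 and without KO CCl4 replicate 2 or either oil replicate. The difference between genotypes passed for 3355 genes (1437 higher, 1918 lower). It passed for 1844 at 0.01 (730 and 1114), for 5685 with the replicate block within genotype (2362 and 3323), and for 2007 to 3892 with 1 library left out (809 to 1671 higher, 1191 to 2221 lower). Quantile normalization gave 1811 higher and 1602 lower. No named gene reversed under these settings, but the Atf4 difference between genotypes lost its call in 9 of them. The causes of these changes were not tested, and unknown depth limits what can be said of low genes.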

Other observations

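Genes of lipid droplets, growth signals and metabolism outside the lists also changed in knockout hepatocytes. They were chosen after their values were seen. Plin2, which coats lipid droplets, was at 1168 and 1336 FPKM after CCl4, against 107 and 122 FPKM under oil (3.44 ± 0.13), and its relative Plin3 rose by 2.43 ± 0.11. Areg, a ligand of the EGF receptor, was at 29.0 and 30.6 FPKM after CCl4, against 0.04 and 0.21 FPKM under oil (4.78 ± 0.13). Akr1c18, a steroid reductase, rose by 3.95 ± 0.11. Ces1d, a carboxylesterase, was at 39.6 and 39.2 FPKM after CCl4, against 758 and 798 FPKM under oil (-4.27 ± 0.10). Bbox1 and Gamt, the last enzymes of carnitine and creatine synthesis, fell by 3.27 and 3.17. Ppp1r3b, which directs a phosphatase to glycogen, and Papss2, which makes the sulfate donor, fell by 3.74 and 3.90.

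Of 21 growth hormone target genes, 5 rose (23.8%) and 10 fell (47.6%), beside 21.2% and 19.7% of all tested genes. Their median was -0.83. The growth hormone receptor Ghr fell by 1.31 and Hsd3b5, a gene of male liver, by 4.37, while Igfbp1, which binds IGF1, rose by 1.87 ± 0.13 and Cish, a feedback inhibitor, by 2.30 ± 0.17. Igf1 did not pass (0.29 ± 0.22). Of 24 retinoid genes, 13 fell and 3 rose. Adh4, a retinol dehydrogenase, fell by 3.37 and Bco1, which cleaves beta-carotene, rose by 1.71 ± 0.12. Of 16 tested ferroptosis genes, 3 rose and 3 fell, 18.8% each way beside 21.2% and 19.7% of all tested genes. Gpx4, which reduces lipid peroxides, did not pass (0.67 ± 0.19, limma adjusted p = 0.0533).

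Of 12 tested matrix and stellate cell genes, 4 rose and 2 fell, with Thbs1, a matricellular protein, at 3.67 ± 0.13 and Col18a1 at -1.30 ± 0.13. Just 7 of the 29 listed reached 1 FPKM in all 4 libraries, so this count may partly follow from the filter. Of 5 tested red cell genes, 4 rose and 1 fell. Only 1 of the 9 listed reached 1 FPKM in all 4 libraries, so this count too partly follows from the filter. The list took 0.00709% and 0.00751% of summed FPKM after CCl4 and 0.00608% and 0.00702% under oil. Of the 20 hepatocyte markers, 4 rose and 5 fell, with 23.3% and 21.0% of summed FPKM after CCl4 and 21.6% and 20.2% under oil. No lymphocyte marker was abundant enough to test.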
